A study of Mus musculus with 6 samples.

Results

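The genes of receptors that guide lymphocytes out of tissue were followed in thymic iNKT1 cells with and without an intact TGF-beta receptor gene. With them was followed the gene for CD69, a surface protein that opposes the receptor S1PR1. The set held 5 genes, taken by symbol from the 17985 genes of the expression table: the sphingosine-1-phosphate (S1P) receptor genes S1pr1, S1pr4 and S1pr5, the oxysterol receptor gene Gpr183, and Cd69. All 5 passed the filter on low values, which asked for 1 CPM or more on average (the reads of a gene scaled to the library total), and were tested among 15691 genes. iNKT1 cells are the T-bet-expressing, interferon-producing subset of invariant natural killer T cells. Both groups came from the thymus of untreated C57BL/6 mice and carried the Tbx21CreTg transgene and the Rosa26-LSL-YFP+/+ reporter, which turns on yellow fluorescent protein where Cre has acted. The control group (Ctrl) had no further allele, and the conditional knockout group (cKO) carried Tgfbr2F/F in addition, so that Tgfbr2 was targeted only in cells in which the Tbx21-driven Cre is or was active. Each group had 3 libraries. The labels did not say how many mice stood behind a library, nor the age of the mice, so p-values measure the spread between these libraries, which may be in part technical.

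S1P is abundant in blood and lymph and scarce within tissue, and lymphocytes that display S1PR1 follow that gradient out of the thymus and lymph nodes. CD69 binds S1PR1 and takes it into the cell, so a cell rich in CD69 stays in place. S1PR5 serves egress of natural killer cells and some monocytes and effector T cells, S1PR4 is a receptor of the same family found on blood and immune cells, and GPR183 (EBI2) steers lymphocytes toward oxysterols made by stromal cells. Much of the iNKT1 pool remains in the thymus as resident cells.

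The promoter windows of 2 S1P receptor genes are shown because they belong to the paralog whose transcript rose and to its most abundant paralog in Ctrl, which did not pass the test. The windows are the 250 bases before the annotated start in RefSeq on build GRCm38.p6, written 5′ to 3′ along the gene. Capitals mark matches to CACCC on either strand, the core letters bound by KLF factors. RefSeq windows were matched for 3 of the 5 genes, S1pr4, S1pr5 and Gpr183. The S1pr5 window lies at chr9:21248444-21248693 and the S1pr4 window at chr10:81500138-81500387, both on the minus strand.
S1pr5: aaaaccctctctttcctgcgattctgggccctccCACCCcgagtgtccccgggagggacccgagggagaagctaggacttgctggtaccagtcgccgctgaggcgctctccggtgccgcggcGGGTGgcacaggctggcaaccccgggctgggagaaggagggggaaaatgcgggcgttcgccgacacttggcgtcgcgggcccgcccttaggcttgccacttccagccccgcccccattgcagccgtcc
S1pr4: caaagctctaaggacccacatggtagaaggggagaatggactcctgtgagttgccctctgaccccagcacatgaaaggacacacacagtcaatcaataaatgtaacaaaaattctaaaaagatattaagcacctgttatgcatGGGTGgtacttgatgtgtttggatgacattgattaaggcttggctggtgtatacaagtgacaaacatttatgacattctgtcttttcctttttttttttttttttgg
The S1pr5 window was rich in G and C, at 69.2%, against 38.8% for S1pr4 and a median of 52.4% over 32851 windows of the same length. It held 2 matches to CACCC and the S1pr4 window 1. Over all windows, 52.0% held at least 1 such match and 21.1% at least 2. A search of both strands for GGTGTG (a T-box core), CAGGTG (a ZEB-type E-box) and CAGAC (a SMAD-type element) found 1 match to CAGGTG, in the S1pr4 window, and none of the others in the 3 windows. These letters occurred in 16.3%, 17.2% and 42.2% of all windows. A CACCC match can share letters with a GGTGTG match. Such matches are descriptions of sequence and not binding sites.

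Library totals ran from 28832779 to 68092478 reads, and Tgfbr2, the targeted gene, fell to 61.0% of its Ctrl level (limma adjusted p 0.0207). The replicate 3 libraries of both groups stood apart from the other 4. They listed 4406 (Ctrl) and 4590 (cKO) genes at 0, where the others listed between 0 and 5, and the first principal component, with 85.1% of the variance, separated them. Of 8 listed iNKT1 genes, Tbx21 lay between 680 and 1027 CPM and Il2rb between 2357 and 4383. Il2rb was higher in cKO with the replicate number as a block (limma adjusted p 0.0166, and 0.99998 without). Klrb1c was at 180 CPM in Ctrl replicate 2 and between 566 and 1021 CPM in the other libraries. Klrd1 and Cd3e had lower means in cKO (442 and 381, 1387 and 1213 CPM). Zbtb16 lay between 41.8 and 60.7 CPM and Ifng between 33.2 and 55.1. The log2 difference was above 0 for 4 of the 8. Listed genes of other cell types summed to little: 4 B cell genes to at most 16.1 CPM, 5 myeloid genes to at most 12.4, 4 double-positive thymocyte genes to at most 22.3, 2 epithelial genes to at most 11.9 and 3 iNKT17 genes to at most 8.59. The 5 iNKT2 genes with values, of which Gata3 and Icos are shared with other T cells, summed to between 407 and 550 CPM in Ctrl and between 360 and 535 in cKO. Within that list Il4 was lower (means of 35.5 and 18.6 CPM, no overlap between groups) and the chemokine receptor gene Ccr4 higher (10.7 and 23.8 CPM); both passed with limma only when the replicate number was a block (adjusted p 0.00806 and 0.0115, against 0.421 and 0.716 without). In bulk RNA, fewer cells of a type and less RNA per cell cannot be told apart.

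S1pr5 was the 1 gene of the 5 that passed the test. Its transcript rose 3.75-fold to 5.91-fold in the same-numbered pairs of libraries, while S1pr1, S1pr4, Cd69 and Gpr183 overlapped between groups. Thus 1 of the 5 passed an adjusted p of 0.05, where 0.663% of all tested genes passed in either direction and 0.204% passed as higher. With the replicate number as a block it was again 1 of 5, and 2.87% of all tested genes. The cKO libraries lay wholly above the Ctrl libraries for 1 of the 5 genes and for 3.89% of tested genes. The genes had been picked with earlier results of these data known, so these counts describe them and carry no test of the set.

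**Figure D1:**
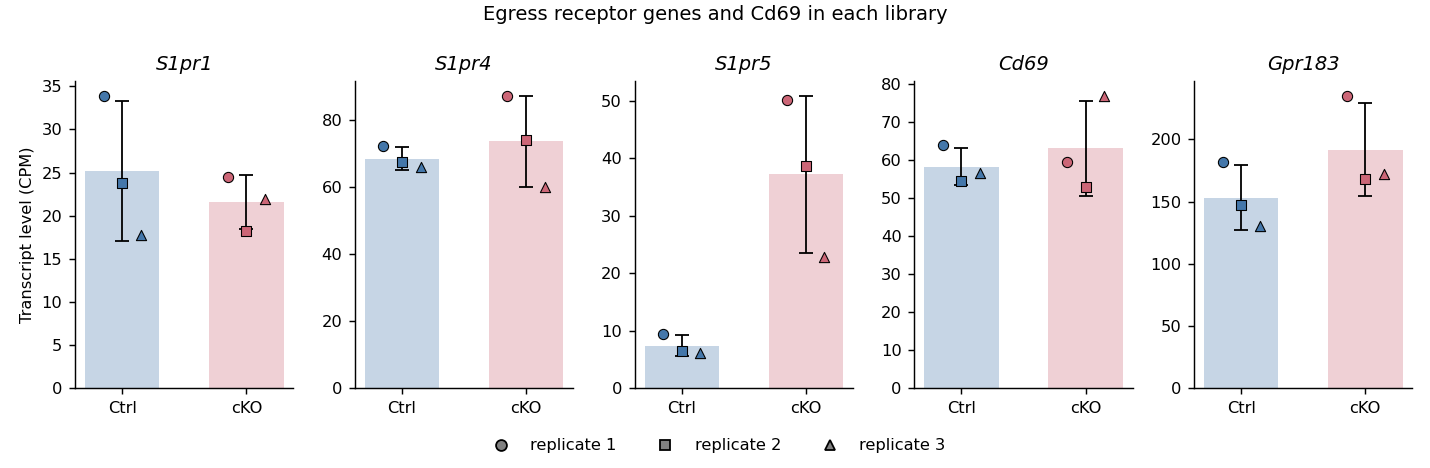
Transcript level in CPM (y axis, from 0, a separate scale for each gene) of the 5 genes in each of the 6 libraries. Bars and whiskers give the group mean and SD over 3 libraries, and symbols give the replicates; every cKO library lies above every Ctrl library for S1pr5 (22.8 to 50.1 against 6.08 to 9.45 CPM), whereas the groups overlap for the other 4 genes.

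S1pr5, the receptor that natural killer cells use to leave bone marrow and lymph nodes, was a low transcript in Ctrl cells and a moderate one in cKO cells. The gene (ENSMUSG00000045087) lies on chromosome 9 from 21242912 to 21248443 on the minus strand, on build mm10. Replicates 1 to 3 gave 9.45, 6.53 and 6.08 CPM in the Ctrl libraries, and 50.1, 38.6 and 22.8 CPM in the cKO libraries. The lowest cKO library was well above the highest Ctrl library, and cKO replicate 3 was the lowest of its group. The Ctrl mean was 7.36 ± 1.83 CPM and the cKO mean 37.2 ± 13.7 CPM, which is 5.05-fold higher (SD, n = 3 each). By replicate number the ratios of CPM were 5.30, 5.91 and 3.75. The difference was 2.14 on the log2(CPM + 1) scale, where low genes appear to change less than they do, with standard error 0.31 and 95% interval 1.41 to 2.87 (limma adjusted p 0.0410 by Benjamini-Hochberg over 15691 genes). By size of the log2 difference S1pr5 ranked 9 among the tested genes, counted from the largest rise. In the authors' deposited table it was marked as higher, with a log2 fold change of 2.38 and an adjusted p of 1.18e-07.

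The rise of S1pr5 was far outside counting error. Between 201 and 1623 reads stood behind each value, a counting error of 2.48% to 7.05%, while the libraries of a group varied by 24.9% (Ctrl) and 36.9% (cKO) of their mean. In rank, S1pr5 moved from between the 40.8 and 47.0 percentiles of tested genes, by CPM per kilobase of merged exons, to between 67.1 and 80.6. Natural killer cells are a known source of S1pr5. Of their 7 listed markers, Ncr1, which encodes the receptor NKp46, lay between 0.774 and 1.93 CPM in Ctrl and between 0.617 and 2.28 in cKO. Eomes lay between 0.453 and 1.25 CPM in Ctrl and between 0.0441 and 1.39 in cKO. Gzma, a granzyme gene, was lower in cKO without overlap, at means of 188 and 75.2 CPM (limma adjusted p 0.549, unadjusted 0.0177), and Itga2 was higher in each same-numbered pair, at 15.3 and 23.1 CPM (limma adjusted p 0.736, unadjusted 0.0370). The 7 markers together, most of them granule and receptor genes that iNKT1 cells also express, summed to between 1180 and 1579 CPM in Ctrl and between 976 and 1615 in cKO, and none was at 0. The ranges of Ncr1, Eomes and the sum, of which Gzmb made up the largest part, overlapped between the groups. Their part in the S1pr5 values was not tested.

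The size of the change held under all 14 alternatives other than leaving out a library, between 1.73 and 2.37 on the log2 scale, but the call did not: edgeR's quasi-likelihood test on reads recovered from the CPM gave an adjusted p of 0.0746 and limma-voom 0.101, and the other 12 passed. It also missed the threshold without Ctrl replicate 1 (limma adjusted p 0.113), Ctrl replicate 2 (0.216), Ctrl replicate 3 (0.163), cKO replicate 1 (0.0918) or cKO replicate 2 (0.214), and passed without cKO replicate 3 (0.0178). Of the 2500 exonic bases of S1pr5, 51 overlap an antisense gene in GENCODE M21, Gm48303, whose reads could not be told apart without strand.

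**Figure D2:**
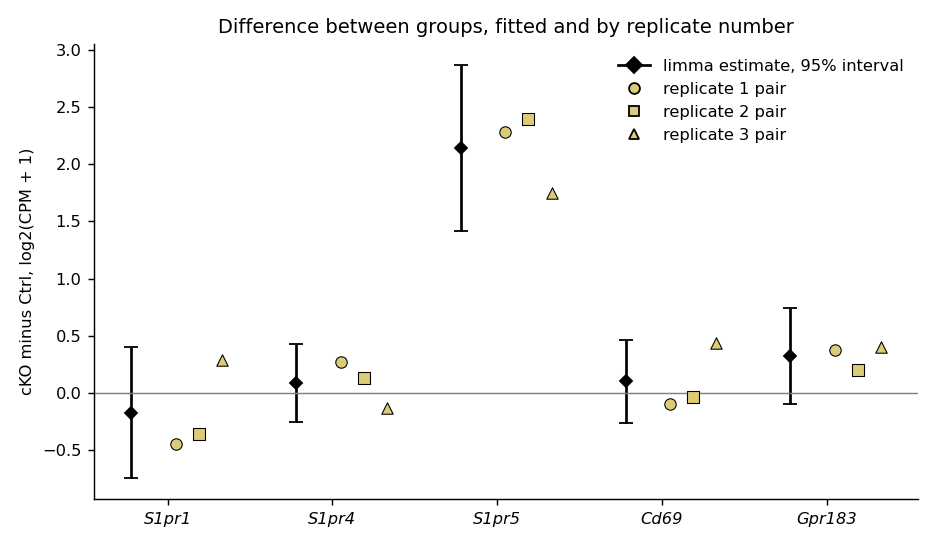
Difference between cKO and Ctrl on the log2(CPM + 1) scale (y axis) for the 5 genes (x axis). Black diamonds and whiskers are the limma estimate with its 95% interval, and yellow symbols are the differences between same-numbered libraries; the interval lies above 0 for S1pr5 (1.41 to 2.87) and includes 0 for the other 4, and S1pr1, S1pr4 and Cd69 have pairs on both sides of 0.

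S1pr1, the main thymic egress receptor, showed no difference beyond the spread between libraries. The gene (ENSMUSG00000045092) lies on chromosome 3 from 115710433 to 115715055 on the minus strand. Replicates 1 to 3 gave 33.9, 23.8 and 17.8 CPM in the Ctrl libraries, and 24.5, 18.3 and 21.96 CPM in the cKO libraries. Ctrl replicate 1 was the highest, and the other 5 libraries lay close together with the groups mixed. Group means were 25.2 ± 8.15 CPM for Ctrl and 21.6 ± 3.14 CPM for cKO (SD, n = 3 each). The log2 difference was -0.18 (limma adjusted p 0.99998), with a 95% interval that runs from 0.594 to 1.32 times the Ctrl level. Same-numbered libraries differed by -0.45, -0.36 and 0.29, so replicates 1 and 2 were lower in cKO and replicate 3 was higher. Without Ctrl replicate 1 the fitted difference turned to 0.0552.

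Markers of other cells that carry S1pr1 also varied between libraries. S1pr1 is high in endothelial cells and in mature T cells that recirculate. Of 6 endothelial markers, 2 had values here. Kdr was listed at 0 in both replicate 3 libraries and lay between 3.74 and 7.21 CPM in the other 4, and the 2 markers summed to between 0.0189 and 7.70 CPM in Ctrl and between 0 and 8.12 in cKO. Among the 6 markers of naive or conventional T cells, Ccr7 was at 7.945 CPM and Igfbp4 at 7.52 CPM in cKO replicate 3, against at most 2.002 and 1.06 CPM in the other 5 libraries. That list, most of it Satb1, Tcf7 and Lef1, which iNKT cells also express, summed to between 1217 and 1319 CPM in Ctrl and between 1450 and 1538 in cKO, and none of its genes was at 0. The 2 ranges did not overlap. Tcf7 had means of 272 and 376 CPM without overlap and was called higher with the replicate block (limma adjusted p 0.0239; 0.227 without). Their part in the S1pr1 values was not tested.

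S1pr4, the S1P receptor of blood and immune cells, did not differ beyond the spread between libraries. The gene (ENSMUSG00000044199) lies on chromosome 10 from 81497745 to 81500132 on the minus strand. Replicates 1 to 3 gave 72.2, 67.5 and 65.9 CPM in the Ctrl libraries, and 87.1, 74.0 and 59.9 CPM in the cKO libraries. The cKO libraries held both the highest and the lowest value. Means were 68.5 ± 3.29 and 73.7 ± 13.6 CPM (SD, n = 3 each), a log2 difference of 0.0877 (limma adjusted p 0.99998) with a 95% interval from 0.838 to 1.35 times the Ctrl level. The direction rested on cKO replicate 1, without which the difference was -0.0399.

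S1pr2, a receptor of the family that restrains migration, was not among the 5 genes and came from a list of further pathway genes. It was at 34.6, 40.001 and 49.5 CPM in Ctrl and at 46.6, 52.1 and 78.0 CPM in cKO, higher in each same-numbered pair with overlapping groups. Its log2 difference of 0.48 did not pass the limma test (adjusted p 0.915), nor limma with the replicate number as a block (0.0556). With the block it passed under limma with TMM scaling (adjusted p 0.0311) and under edgeR (0.0364). Those fits called 3.28% and 2.99% of all tested genes. S1pr2 was the 1 tested gene of its list, and edgeR, DESeq2 and limma-voom without the block did not call it. S1pr3, the other gene on that list, was not analysed here.

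Levels of different genes were compared per length, as CPM per kilobase of the gene length given in the deposited table. For 59.1% of the 17825 genes matched in GENCODE M21 that length equals the exons summed over transcripts, and for 19.4% the merged exons. For S1pr1, S1pr4, S1pr5 and Gpr183 it was close to the merged exons (3029 and 3046, 2388 and 2386, 2500 and 2500, 2942 and 2887 bases). For Cd69 it was 1621 against 6509 bases and for S1pr2 2815 against 7971, so the places of these 2 genes depend on the length used. In Ctrl the order from high to low was Gpr183 at 52.0 ± 8.92, Cd69 at 35.9 ± 3.06, S1pr4 at 28.7 ± 1.38, S1pr1 at 8.31 ± 2.69 and S1pr5 at 2.94 ± 0.733 CPM per kilobase (SD, n = 3). No 2 neighbours in this order overlapped in their Ctrl libraries. In cKO, S1pr5 was at 14.9 ± 5.48 and S1pr1 at 7.13 ± 1.04 CPM per kilobase, so they had exchanged places, and the lowest S1pr5 library (9.11) was above the highest S1pr1 library (8.10). Cd69 (38.9 ± 7.68) and S1pr4 (30.9 ± 5.70) overlapped in cKO. By merged exons, an alternative chosen after seeing the data, Cd69 was at 8.95 ± 0.761 in Ctrl and 9.68 ± 1.91 CPM per kilobase in cKO. It then lay below S1pr4, and in Ctrl it overlapped S1pr1 (8.26 ± 2.67; SD, n = 3 each).

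The mix of S1P receptor transcripts therefore shifted toward S1pr5. Per length, S1pr5 made up 6.58%, 4.94% and 4.55% of the S1pr1, S1pr2, S1pr4 and S1pr5 transcripts in Ctrl replicates 1 to 3, and 24.7%, 21.8% and 13.2% in cKO replicates 1 to 3. The share of S1pr4 was 52.5% ± 0.903 in Ctrl and 41.6% ± 4.68 in cKO, that of S1pr2 was 27.0% ± 5.76 and 28.8% ± 10.1, and that of S1pr1 was 15.1% ± 4.25 and 9.65% ± 1.03 (SD, n = 3 each). S1pr4 was the largest share in 5 of 6 libraries; in cKO replicate 3, S1pr2 was larger, at 40.1% against 36.3%. By merged exons S1pr5 made up 7.64%, 5.97% and 5.78% in Ctrl and 28.4%, 26.2% and 17.8% in cKO, and S1pr4 was the largest share in all 6. The 4 genes together came to between 52.9 and 57.5 CPM per kilobase in Ctrl and to between 69.1 and 81.2 in cKO. For each S1pr1 transcript, per length, there were 0.361 ± 0.0454 of S1pr5 in Ctrl and 2.10 ± 0.729 in cKO. These are shares and ratios of members chosen with earlier results known, and they are given without a test.

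**Figure D3:**
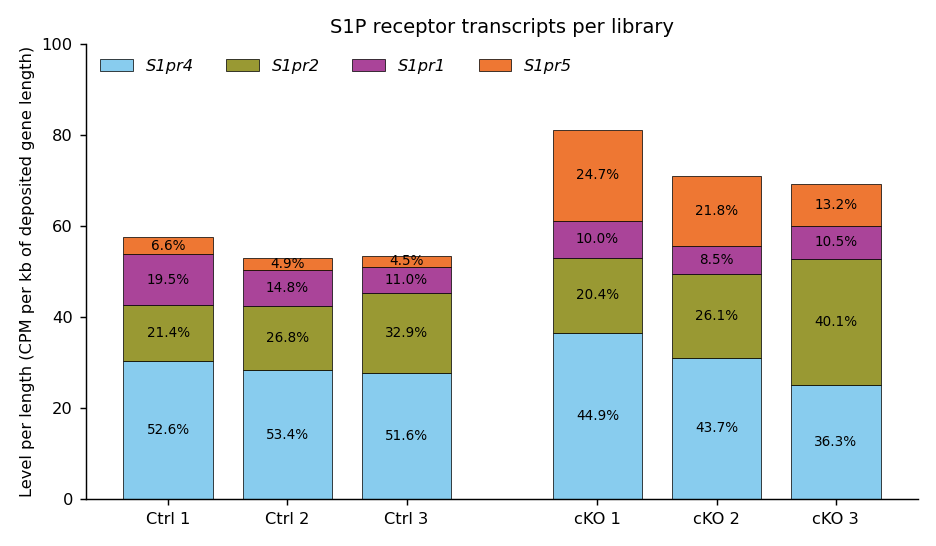
Level per deposited gene length (y axis, CPM per kilobase) of the 4 S1P receptor genes with values, stacked for each library (x axis); the printed percentages are each gene's share of its bar. The S1pr5 section grows from 4.55% to 6.58% of the bar in Ctrl to between 13.2% and 24.7% in cKO, and the cKO bars are taller (69.1 to 81.2 against 52.9 to 57.5).

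Cd69, whose product holds S1PR1 inside the cell, did not differ between groups beyond the spread between libraries. The gene (ENSMUSG00000030156) lies on chromosome 6 from 129267324 to 129275369 on the minus strand. Replicates 1 to 3 gave 63.8, 54.3 and 56.6 CPM in the Ctrl libraries, and 59.4, 52.7 and 76.9 CPM in the cKO libraries. The values were mixed between groups apart from cKO replicate 3, which was the highest. Means were 58.2 ± 4.95 and 63.0 ± 12.4 CPM (SD, n = 3 each), and the log2 difference of 0.0978 had a 95% interval from 0.831 to 1.38 times the Ctrl level (limma adjusted p 0.99998). The direction rested on cKO replicate 3: the difference was -0.0522 without it and -0.0712 in replicates 1 and 2 alone.

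Cd69 is also an early activation gene, induced by handling and by antigen receptor signals. The 11 immediate early and stress genes with values summed to between 651 and 860 CPM in Ctrl and between 721 and 896 in cKO. Limma on unscaled CPM called none with or without the replicate block, and 0 had an unadjusted p under 0.05 without it. With the block Dusp1 passed under edgeR (adjusted p 0.0233), the 1 gene called there, and under limma with TMM scaling (0.0232). Without the block edgeR, DESeq2 and limma-voom called 0. In the blocked limma fit the unadjusted p was under 0.05 for Dusp1 (0.00164), Atf3, Nr4a1, Hspa1a, Egr1 and Jun. The same held for 1981 of 15691 tested genes. The log2 difference was above 0 for 10 of 11, and the median was 0.30. Highest among them were Ier2 (284 ± 53.3 CPM for Ctrl, 273 ± 42.4 for cKO), Junb (219 ± 29.3 and 228 ± 10.7) and Egr1 (94.99 ± 18.2 and 117 ± 25.0; SD, n = 3 each). Their part in the Cd69 values was not tested. Per deposited length, the ratio of Cd69 to S1pr1 ran from 3.51 to 5.93 in Ctrl and from 4.53 to 6.54 in cKO, ranges that overlap; by merged exons it ran from 0.880 to 1.49 and from 1.13 to 1.64.

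Gpr183, the most abundant of the 5 transcripts per length, did not pass the test. The gene (ENSMUSG00000051212) lies on chromosome 14 from 121952331 to 121965193 on the minus strand, within the span of Ubac2 but sharing no exon with it. Replicates 1 to 3 gave 181.7, 147 and 130.3 CPM in the Ctrl libraries, and 235, 168 and 172 CPM in the cKO libraries. Each cKO library was above its same-numbered Ctrl library, but Ctrl replicate 1 was above cKO replicates 2 and 3. Means were 153 ± 26.2 and 192 ± 37.6 CPM (SD, n = 3 each), a log2 difference of 0.32 with a standard error of 0.17 (limma adjusted p 0.99998). The 95% interval ran from 0.935 to 1.67 times the Ctrl level. With the replicate number as a block that interval was 1.10 to 1.42 times the Ctrl level, and limma's unadjusted p of 0.00431 became an adjusted p of 0.106. With S1pr5, Gpr183 was 1 of 2 genes of the 5 that were higher in all 3 same-numbered pairs, as were 11.5% of all tested genes.

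Genes that make, degrade or carry the ligands did not pass. Of 13 listed S1P genes, 8 had values and 7 were tested. None passed with limma, with or without the replicate block, nor with edgeR, DESeq2 or limma-voom. Without the block 0 had an unadjusted p under 0.05, and with it Abca1 did (limma 0.0409, adjusted p 0.367). Differences were above 0 for 4 of 7, and the median was 0.00305. Sgpp1, an S1P phosphatase, had means of 131 ± 18.1 CPM for Ctrl and 150.2 ± 3.91 for cKO, and Sgpl1, the S1P lyase, means of 145 ± 11.7 and 146 ± 14.1 CPM (SD, n = 3 each). Abca1, a lipid exporter, was between 47.0 and 109 CPM in Ctrl and between 50.4 and 125 in cKO. Of 4 oxysterol enzyme genes only Cyp7b1 had values, at most 2.14 CPM in any library and listed at 0 in both replicate 3 libraries.

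Transcription factors known to act on the receptor genes gave no call in the unblocked limma test. None of the 9 tested passed with limma without the replicate block. An unadjusted p under 0.05 was found for 3 of them, and for 944 of all 15691 tested genes. Without the block edgeR called 0, limma-voom 0 and DESeq2 3, where DESeq2 called 3.53% of all tested genes. The median difference was 0.16, against -0.0382 over all tested genes. Klf2, the activator of S1pr1, was at 260.2, 179.6 and 106 CPM in the 3 Ctrl libraries, and at 338, 146 and 126 CPM in those of cKO. Its libraries were ordered by replicate rather than by group, and the groups overlapped (limma adjusted p 0.99998). Tbx21, whose product T-bet is needed for S1pr5 in natural killer cells, had means of 779 ± 86.1 CPM for Ctrl and 947 ± 131 for cKO (SD, n = 3 each; limma adjusted p 0.984).

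With the replicate number as a block, 1 of these 9 passed as higher and 1 as lower, where 1.24% and 1.64% of all tested genes did. Klf3, a KLF-family repressor, was higher at 256 ± 71.2 against 157 ± 36.8 CPM (SD, n = 3 each; limma adjusted p 0.00235 with the block, 0.716 without). Zfp683 encodes Hobit, a factor of resident lymphocytes known to repress S1pr1 and S1pr5. It was at 207, 223 and 216 CPM in Ctrl and at 151, 143 and 97.2 CPM in cKO, with no overlap between groups. Its limma adjusted p was 0.0167 with the block and 0.227 without. Prdm1, also on this list, was higher in each same-numbered pair, at means of 28.3 CPM in Ctrl and 36.3 in cKO. It did not pass (limma adjusted p 0.256 with the block, 0.935 without). Runx3 was lower in cKO without overlap, at means of 213 and 177 CPM. DESeq2 called it (adjusted p 0.0108) along with Klf3 and Zfp683, and limma did not (adjusted p 0.158 with the block, 0.464 without). Eomes and Zeb2, other regulators of S1pr5 in cytotoxic cells, were low, at most 1.39 and 9.68 CPM in any library.

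**Figure D4:**
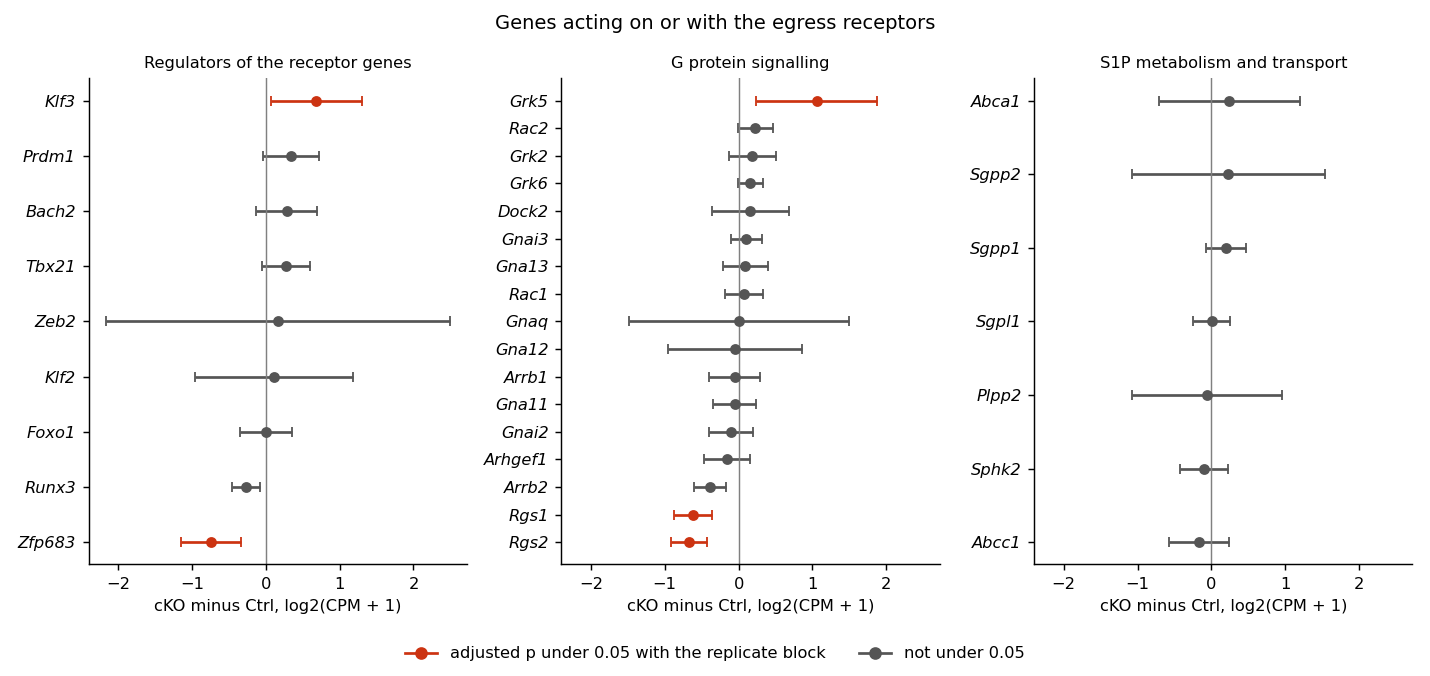
Difference between cKO and Ctrl on the log2(CPM + 1) scale (x axis) with its limma 95% interval for tested genes of 3 lists (y axis, by size of the difference). Red marks genes with an adjusted p under 0.05 when the replicate number is a block; without the block none of these genes passed, and the red genes are Klf3 and Grk5 (higher) and Zfp683, Rgs1 and Rgs2 (lower).

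Downstream of the receptors, 2 regulators that shorten G protein signalling, Rgs1 and Rgs2, passed as lower with limma when the replicate number was a block. All 17 genes of this list with values were tested. Without the block limma called 0, and 4 had an unadjusted p under 0.05, as had 944 of all 15691 tested genes. Also without it edgeR called 0, limma-voom 0 and DESeq2 5, where DESeq2 called 3.53% of all tested genes. With the block limma called 1 as higher and 2 as lower, where 1.24% and 1.64% of all tested genes passed. The median difference was 0.00862. Rgs1, which damps chemokine and S1P receptor signalling, was at 124, 118 and 142 CPM in Ctrl and at 75.6, 88.6 and 85.0 CPM in cKO. Rgs2 was at 235, 219 and 245 CPM in Ctrl and at 165, 136 and 138 CPM in cKO. Neither gene overlapped between groups. The limma adjusted p of Rgs1 was 0.0884 without the block and 0.0114 with it, and that of Rgs2 0.0553 and 0.00428. Grk5, a kinase that desensitises G protein-coupled receptors, was low but separate, with means of 2.12 ± 0.750 CPM for Ctrl and 5.40 ± 0.755 for cKO (SD, n = 3 each; limma adjusted p 0.0143 with the block, 0.567 without). DESeq2 called these 3 genes and also Arrb2 and Grk6. Arrb2, an arrestin gene, had means of 148 and 112 CPM without overlap (DESeq2 adjusted p 0.0208; limma adjusted p 0.239). Grk6 had means of 367 and 410.3 CPM without overlap (DESeq2 adjusted p 0.00252; limma adjusted p 0.878). The 3 most abundant genes of the list, Rac2, Arhgef1 and Dock2, did not pass, with Rac2 at 1841 ± 120 and 2159 ± 214 CPM.

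Among 8 circulation genes limma called 0 without the block, and 3 had an unadjusted p under 0.05, as had 944 of all 15691 tested genes. Also without the block edgeR called 0, limma-voom 0 and DESeq2 3. With it Itga4, the alpha chain of the VLA-4 integrin, was higher (27.0 ± 1.89 against 48.6 ± 9.25 CPM; limma adjusted p 0.0219, and 0.112 without the block). The chemokine receptor gene Cx3cr1 was lower (10.3 ± 1.03 against 1.93 ± 0.888 CPM; limma adjusted p 0.00147, and 0.0646 without; SD, n = 3 each). Over all tested genes DESeq2 called 3.53%, and limma with the block called 1.24% as higher and 1.64% as lower. DESeq2 called Itga4, Cx3cr1 and Cxcr4. Cxcr4 was higher in cKO without overlap, at means of 4.29 and 7.65 CPM (DESeq2 adjusted p 0.0165). Limma did not call Cxcr4 (adjusted p 0.128 with the block, 0.651 without). Itgal, Itgb7 and Cxcr3, the most abundant of the list, did not pass. The median difference was 0.16. Of 10 tissue residency genes, 8 passed without the block, all lower, where 0.459% of tested genes passed as lower: Itgae, Ccr8, Cdh1, Xcl1, Qpct, Skil, Ahr and Rgs10. Itga1 and Cxcr6 passed with the block (limma adjusted p 0.00394 and 0.00281). What was left in cKO ran from 1.03% of the Ctrl level for Cdh1 to 63.8% for Cxcr6, and the median difference was -2.39. That list was written with earlier results of these data known, and its count is no independent evidence of its direction.

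The genes whose profile over the 6 libraries was most like that of each receptor were found by Pearson correlation of log2(CPM + 1) among 10132 other genes whose average was 5 CPM or more. For S1pr5 they were Nck2 (0.992), an adaptor of actin signalling, Grk6 (0.991), a receptor kinase, and Il18rap (0.985), a chain of the interleukin-18 receptor. Il18rap lay between 299 and 349 CPM in Ctrl and between 480 and 617 in cKO. Grk6 lay between 360.2 and 375 CPM in Ctrl and between 403 and 418 in cKO. Both were picked for likeness to S1pr5, whose groups do not overlap, so their split between groups follows from that choice. Correlation takes no account of size: Grk6 was 1.12-fold higher in cKO and S1pr5 5.05-fold. For Gpr183 the nearest were Aqp9 (0.991), a water and glycerol channel, G3bp2 (0.986) and Thtpa (0.982). For S1pr1 they were Zfp51 (0.9998), Brix1 (0.996) and BC055324 (0.993), for S1pr4 Zfp850 (0.9986), Mcm9 (0.986) and Hnrnpa3 (0.984), and for Cd69 Dhrs7b (0.995), H2afz (0.989) and Sptssa (0.986). Between 12 and 32 genes exceeded 0.95 for each receptor or Cd69. The 6 points share library preparation and the split of replicate 3, so these values are descriptions. Among the 5 genes themselves, Gpr183 and S1pr5 were the most alike (0.78) and Cd69 and S1pr4 the least (-0.44).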

How the data were processed

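RNA-seq libraries of thymic iNKT1 cells, 3 Ctrl and 3 cKO, were described by 1 table. Per the labels' protocols, a Qiagen micro kit gave the RNA, a NuGEN Ovation Ultralow kit the libraries, and a NextSeq500 the reads. The submitters' processing notes name Trimmomatic 0.33, STAR 2.5.2, HTSeq 0.6.1, edgeR and mm10. The authors deposited CPM per library, read counts scaled to the library total; per the file headers they also deposited, for each gene, a p-value with its adjusted form, a likelihood-ratio score, a log2 fold change and a mean log2 CPM. Columns named WT and KO were taken as Ctrl and cKO. All CPM values (100%) were whole multiples of 1 read within a tolerance of 0.001 reads, so reads were recovered; 1 read was worth between 0.0147 and 0.0347 CPM. Counting errors were taken from reads and cover counting only, and the labels name no molecular identifiers. The limma intervals instead rest on the spread between libraries.

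The test was limma 3.58.1 in R 4.3.3 on log2(CPM + 1) for genes averaging 1 CPM or more, with group as the only term, trended and robust empirical Bayes moderation, and Benjamini-Hochberg adjustment over all tested genes with a threshold of 0.05. Alternatives were TMM, DESeq2-type and upper quartile scaling, pseudocounts of 0.1 and 5, no filter or one at 5 CPM, edgeR 4.0.16, DESeq2 1.42.0 and limma-voom on recovered reads, the replicate block, replicates 1 and 2 alone, and leaving out each library. Recovered reads gave 40 called genes with edgeR's quasi-likelihood test. The limma, edgeR, DESeq2 and limma-voom fits were also run on simulated counts. Those counts held no effect of the replicate number, so they do not show how the fits handle the split of replicate 3. The replicate block was judged on deviations from group means, which correlated at 0.86, 0.69 and 0.92 between Ctrl and cKO libraries numbered 1, 2 and 3. Differently numbered libraries correlated at 0.72 (Ctrl 2 with cKO 1) and 0.58 (Ctrl 1 with cKO 2), and number 3 with 1 or 2 from -0.89 to -0.70. Number 3 thus stood apart, while numbers 1 and 2 were not told apart by this check; the labels do not say what a number shares. Newer symbols were matched to older ones in the table through RefSeq synonyms. The deposited length column, used for levels per length, is not a merged exon length for most genes, so ranks among genes used merged exons of GENCODE M21. The members and gene lists were chosen with earlier results of these data known. Named genes were the 5 members, Tgfbr2, pathway list genes past the threshold with or without the block, up to 3 most abundant genes per list, and the 3 most alike genes per member; others were chosen after their values were seen.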

Additional observations from a re-analysis of the deposited data

How the results depend on the processing

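S1pr5 and Gpr183 kept their direction under all 14 alternatives and all 6 fits that left out a library. The S1pr5 difference was 2.36 under edgeR without the block and 2.31 under limma-voom, both short of the threshold; leaving out a library it ran from 1.90 to 2.45, and it passed in 1 of 6. With the replicate block the adjusted p of S1pr5 was 0.000280, and the block changed the call of none of the 5 genes. Over the fits that left out a library, S1pr1 ran from -0.39 to 0.0552, S1pr4 from -0.0399 to 0.23, Cd69 from -0.0522 to 0.22 and Gpr183 from 0.17 to 0.45. Cd69 turned to -0.0712 in replicates 1 and 2 alone. The cause of these changes was not tested. Of 64 tested pathway genes 8 passed, all in the tissue residency list, which was written with earlier results known. Of the other 54 limma called 0, and 10 had an unadjusted p under 0.05, as had 944 of all 15691 tested genes. Among those 54, edgeR without the block called 0, limma-voom 0, DESeq2 11 and edgeR with the block 9. Over all tested genes these fits called 0.255%, 0.395%, 3.53% and 2.99%. The count over the 64 was 17 with the replicate block, 19 under edgeR with the block, 19 under TMM with the block, 21 under DESeq2 and 15 in replicates 1 and 2, and from 6 to 7 without 1 library. Over all genes 104 passed (0.663%), against 451 with the replicate block, 40 under edgeR, 469 under edgeR with the block, 514 under TMM with the block, 554 under DESeq2, 62 under limma-voom, 291 in replicates 1 and 2, and from 14 to 85 without 1 library. Higher genes were 32 of 104 calls, 194 of 451 with the block, 225 of 469 under edgeR with the block, 265 of 514 under TMM with the block and 282 of 554 under DESeq2. Depth limited none of the 5 genes, each with at least 201 reads in every library.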

Other observations

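The genome around the 5 genes was examined within 250 kilobases on either side, and the genes named here were chosen after their values were seen. Pde4a, a phosphodiesterase that degrades cyclic AMP, ends 29663 bases from S1pr5 and moved the other way, falling from a mean of 42.1 to 13.1 CPM (log2 difference -1.65, limma adjusted p 0.0348). It was the 1 called gene among 19 tested neighbours of S1pr5, whose median difference was -0.0643; 0.663% of all tested genes passed. The neighbour Icam1 was at 162 and 213 CPM and did not pass (limma adjusted p 0.239). S1pr2 lies 266 kilobases from S1pr5 on chromosome 9.

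No neighbour of the other 4 genes passed without the replicate block, and 1 each of S1pr4, Cd69 and Gpr183 passed with it, all higher in cKO. Gna15, which encodes a G protein alpha subunit of blood cells and lies beside S1pr4, had means of 38.5 and 62.6 CPM (limma adjusted p 0.00768 with the block, 0.109 without). Klrb1f, a lectin-like receptor gene near Cd69, had means of 13.6 and 37.7 CPM (0.00752 and 0.0616). Gpr18, another G protein-coupled receptor gene beside Gpr183, had means of 110 and 149 CPM (limma adjusted p 0.0355 with the block, 0.460 without). With the block, 2.87% of all tested genes passed.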
